A study of Mus musculus with 20 samples.

Results

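Epas1 encodes HIF-2α, one of the α subunits of the hypoxia-inducible factors, and its values are given here beside those of its paralogs, partners and regulators in RNA recovered with iron regulatory protein 2 (IRP2). The 10 genes were Epas1, Hif1a, Hif3a, Arnt, Arnt2, Vhl, Egln1, Egln2, Egln3 and Hif1an. They were taken by name, through every probe set that carried 1 of these symbols in the array annotation, which gave 30 of the 45037 probe sets that were not array controls. A probe set was tested where at least 2 of its 20 values were no lower than the median value of the array, which left 18 of the 30 among 30153 tested in all. The other 12, which belonged to Hif1a, Hif3a, Arnt, Arnt2, Egln1 and Hif1an, had log2 values between 2.76 and 6.11 and are not described further.

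RNA from 5 tissues of C57BL6/J mice was studied, and 2 reactions per tissue and arm were hybridised to Affymetrix Mouse Genome 430 2.0 arrays. In the IRP2 reaction, 50 µg of pooled total RNA was combined with purified His-tagged IRP2 from E. coli and an antibody against the tag. In the control reaction run beside it the protein was left out, according to the sample titles and the design text. The source label of the control samples lists the protein as well, and the titles were followed here. Duodenum, liver and spleen IRP2 and control reactions used RNA of 4 mice that had eaten an iron-poor diet (below 10 mg per kg) after weaning, for 21 days. Bone marrow and brain IRP2 and control reactions used RNA of 6 mice of 8 to 10 weeks on a diet of normal iron content. A contrast between these sets is at once one of tissue, diet and age, which cannot be told apart. The protein met extracted RNA in a tube, so the values concern naked RNA and not complexes formed in cells. The labels do not say whether both replicates came from separate pools, so the p-values reflect how far these arrays spread, and that spread may be technical.

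In cells with enough oxygen, the prolyl hydroxylases encoded by Egln1, Egln2 and Egln3 mark HIF α subunits, the VHL protein recognises the mark, and the subunit is degraded. The asparaginyl hydroxylase encoded by Hif1an blocks coactivator binding, and both kinds of enzyme need iron and oxygen. When they are inactive, the α subunit pairs with ARNT or ARNT2 and switches on genes of iron uptake, red cell production, vessel growth and glycolysis. The Epas1 mRNA is known to carry an iron-responsive element (IRE) in its 5′ untranslated region, a stem-loop to which IRPs bind and through which they hold back translation. In the duodenum HIF-2α is known to drive iron absorption genes, and it is abundant in endothelium.

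The probe sets that passed a test among the 10 genes were all of Epas1. On both of its 2 probe sets, both IRP2 arrays lay above both control arrays in duodenum, liver and spleen, by 1.52 to 2.33 times on average. In brain the IRP2 reactions averaged 1.48 and 1.35 times the controls, and in bone marrow 1 probe set lay lower in the IRP2 reactions while the other gave similar values in both. Within single tissues no probe set of the 10 genes passed in limma, a linear model fitted to all probe sets, while the arrays were not paired. When arrays of the same replicate number were compared with each other, 1 Epas1 probe set passed in duodenum and in liver and both in spleen. None of the 16 tested probe sets of the other 9 genes passed the test in any tissue or on the mean over tissues.

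On the Epas1 probe set with the higher mean signal, 1435436_at, the log2 values in duodenum were 10.98 and 11.67 with IRP2, against 10.36 and 10.88 in the control reactions. In liver they were 11.71 and 11.93 with IRP2, against 11.21 and 11.22 without. In spleen they were 12.06 and 11.60 with IRP2, against 10.69 and 10.72 without. In these tissues both IRP2 arrays lay above both controls, with the narrowest gap in duodenum. In brain the values were 11.14 and 10.43 with IRP2, against 10.29 and 10.15 without, so that the IRP2 arrays again lay above both controls, replicate 2 only slightly. In bone marrow the order was the other way round, with 6.14 and 6.85 in the IRP2 reactions, against 7.0 and 7.43 in the controls. Across all tested probe sets, both IRP2 arrays lay above both controls for 14.4% in duodenum, 13.9% in liver, 15.6% in spleen and 4.21% in brain, and below both for 12.1% in bone marrow. Lying above in duodenum, liver, spleen and brain together was rarer, at 176 probe sets or 0.584%, of which 1435436_at was 1.

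The second Epas1 probe set, 1449888_at, had log2 values of 7.40 and 7.97 with IRP2 in duodenum, against 6.54 and 6.73 without. In liver it had 7.47 and 7.62 with IRP2, against 6.17 and 6.49 without. In spleen it had 6.09 and 6.23 with IRP2, against 5.25 and 5.01 without. The groups were apart in all of these tissues, and in liver the gap was the widest of the 5 tissues. In bone marrow the values were 5.12 and 5.27 with IRP2, against 5.24 and 4.95 without, and the groups overlapped. In brain they were 6.24 and 5.42 with IRP2, against 5.65 and 5.15 without, and the groups also overlapped, although the IRP2 array was the higher in both pairs. Spleen control, bone marrow, brain control and brain IRP2 replicate 2 values lay near or below the median of their own array, which limits what this probe set can show there.

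**Figure D1:**
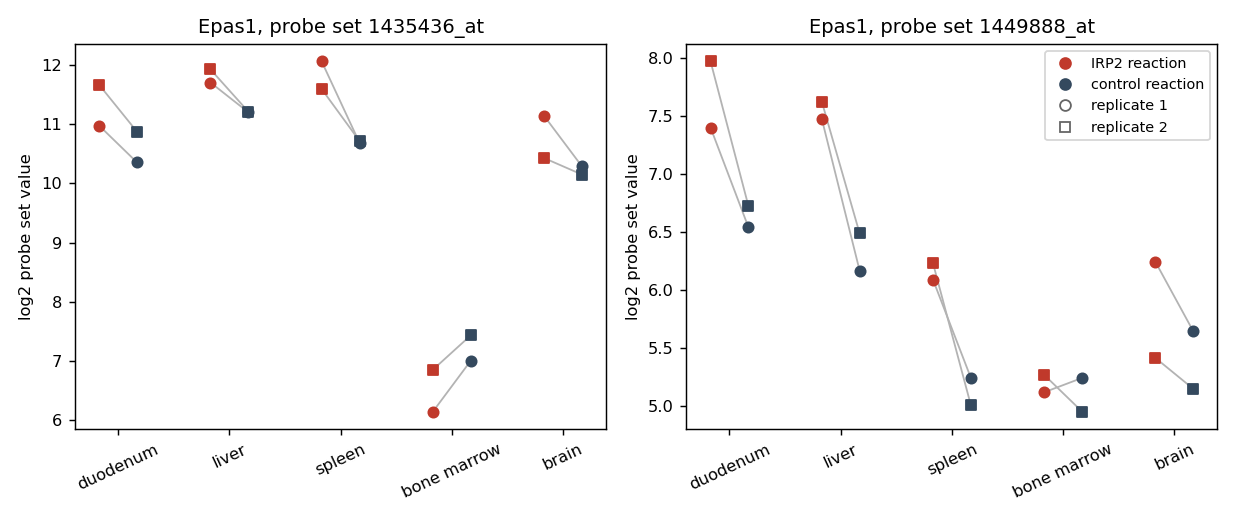
Log2 values of the 2 Epas1 probe sets (y axis, a separate scale for each panel) in 5 tissues (x axis). Red points are IRP2 reactions and dark points control reactions, circles replicate 1 and squares replicate 2, and grey lines join arrays of the same tissue and replicate number. The lines descend towards the control in duodenum, liver, spleen and brain on both panels, and in bone marrow they rise towards the control for both pairs of 1435436_at and for 1 pair of 1449888_at.

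As a mean over the 5 tissues, the log2 ratio of IRP2 over control reactions was 0.77 ± 0.13 (SE, 20 arrays) for Epas1 1449888_at. This was a 1.70-fold enrichment, with a 95% interval of the log2 ratio of 0.50 to 1.03. It passed the test, with an adjusted p of 0.00688 in limma without a replicate block, the fit that gave each SE and interval here. It was positive in 9 of 10 pairs. For 1435436_at the mean was 0.46 ± 0.14 (SE, 20 arrays), or 1.37-fold, with an interval of 0.16 to 0.76, and the ratio was positive in 8 of 10 pairs. Its adjusted p was 0.576 without the block and 0.0112 with it. Leaving out 1 tissue, an alternative chosen after seeing the data, ended this call with the block for duodenum (mean of the other tissues 0.40, adjusted p = 0.0689), liver (0.42, adjusted p = 0.0514) and spleen (0.29, adjusted p = 0.263). It remained without brain (0.43, adjusted p = 0.0394) and without bone marrow (0.75, adjusted p = 0.000503). The call of 1449888_at with the block remained whichever tissue was left out, with adjusted p in limma of at most 0.00169. The block compares each IRP2 array with the control of the same replicate number, and same-numbered arrays deviated together in all 5 tissues. So 1 of the 18 member probe sets rose without the block and 2 with it, all of them of Epas1, where 0.365% and 1.07% of all tested probe sets rose, and 0.00663% and 0.146% fell. These probe sets ranked 94th and 223rd from the top of 30153 by the size of the mean ratio.

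Within single tissues, the ratio of 1449888_at was 1.05 in duodenum, 1.22 in liver and 1.03 in spleen, and it was 0.10 in bone marrow and 0.43 in brain. That of 1435436_at was 0.71 in duodenum, 0.61 in liver and 1.13 in spleen, and it was -0.72 in bone marrow and 0.57 in brain. The SE was 0.28 for each ratio of 1449888_at and 0.31 for each of 1435436_at. Each SE comes from limma without the block, which pools the spread over all tissues. Without the block, limma called no member in any single tissue, where 0.073% of tested probe sets were called as higher in duodenum, 0.0332% in liver and 0.063% in spleen, with 0.00995% in bone marrow and 0.0597% in brain. As lower it called 0.00332% in brain and 0% elsewhere. At an unadjusted p under 0.05, both Epas1 probe sets were higher in duodenum and in spleen, 1 of them in liver, and no member in brain, where 1.05%, 0.869%, 0.793% and 0.551% of all tested probe sets were. In bone marrow 1435436_at and Egln1 were lower at that level, as were 4.77% of all. With the block, 1449888_at rose in duodenum (adjusted p = 0.0220), liver (adjusted p = 0.0102) and spleen (adjusted p = 0.0226), and 1435436_at rose in spleen (adjusted p = 0.0153), all in limma. That made 1 member called of 18 in duodenum, 1 in liver and 2 in spleen, against 0.282%, 0.206% and 0.292% of all tested probe sets, with 0.0133% called as lower in each. In bone marrow and brain the block called none, where 0.378% and 0.139% of tested probe sets were called as higher and 0.348% and 0.00332% as lower. The lower value of 1435436_at in bone marrow did not pass, with an adjusted p of 0.744 in limma without the block and 0.0757 with it.

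Markers of endothelium and of pancreas acinar cells were compared between the arms beside the Epas1 ratios. Of the 5 endothelial markers, 2 lay higher on both IRP2 arrays in duodenum, 2 in liver, 1 in spleen and 2 in brain, and 0 lay lower. Across all tested probe sets 14.4%, 13.9%, 15.6% and 4.21% lay higher in that order of tissues, and 8.98%, 20.7%, 20.2% and 6.44% lay lower. Their summed signal, as log2, was 9.69 and 9.42 with IRP2 in duodenum, against 9.51 and 9.26 without. It was 10.44 and 10.49 with IRP2 in liver, against 10.40 and 10.41 without, and 10.25 and 10.04 with IRP2 in spleen, against 10.12 and 9.96 without. In brain it was 9.40 and 9.19 with IRP2, against 9.29 and 9.22 without, and the median difference of the 5 markers ran from 0.04 to 0.11 in these tissues. Of the 4 pancreas acinar markers, 3 lay higher on both IRP2 arrays in duodenum and in liver, with median differences of 0.27 and 0.31. Of all tested probe sets 14.4% and 13.9% did. Their summed signal was 14.52 and 14.50 with IRP2 in duodenum, against 14.08 and 14.43 without, and 8.44 and 8.50 with IRP2 in liver, against 8.03 and 8.16 without. In spleen 0 of the 4 acinar markers lay apart, with a median difference of -0.03. Their summed signal there was 10.63 and 12.11 with IRP2, against 10.15 and 10.98 without. The part of these markers in the Epas1 ratios was not tested.

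The bone marrow ratios of pair 1 were the most widely spread. Over all tested probe sets they had an SD of 0.568, against 0.214 to 0.312 in the other 9 pairs. Its control replicate 1 correlated with the spleen arrays at 0.908 (Spearman, across probe sets), whereas the 3 remaining arrays of that tissue gave 0.824 to 0.825. The 5 myeloid markers in the control reactions (Mpo, Elane, Prtn3, Ltf and Camp) were highest in bone marrow, 5 of 5, and their median log2 value there was 10.99 and 10.46 with IRP2, against 12.21 and 10.34 without. Their summed signal was 13.45 and 12.93 with IRP2, against 14.46 and 12.75 without, as log2. The endothelial markers had a summed signal there of 8.38 and 8.31 with IRP2, against 8.36 and 8.35 without, and none of the 5 lay apart between the arms. The part of these differences in the bone marrow ratios was not tested. The bone marrow ratio of 1435436_at was -0.86 in pair 1 and -0.58 in pair 2. Over all tested probe sets, the ratios of the 2 bone marrow pairs correlated at 0.018 (Pearson), against 0.187 to 0.364 in the other tissues. Ratios in bone marrow thus hardly repeated between its pairs.

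The ratios of the Epas1 probe sets were also compared between tissues. The moderated F test that the 5 ratios were equal gave F = 4.89 for 1435436_at (adjusted p = 1.0 in limma without the block, 0.151 with it) and F = 2.93 for 1449888_at (adjusted p = 1.0 and 0.630). It called none of the 18 members, and 0.00332% of all tested probe sets, or 0.0398% with the block. The mean ratio of duodenum, liver and spleen exceeded that of bone marrow and brain by 0.89 ± 0.29 (SE) for 1435436_at, with a 95% interval of 0.28 to 1.5, and by 0.84 ± 0.26 (SE) for 1449888_at, with an interval of 0.29 to 1.38. Neither passed, with adjusted p of 1.0 in limma without the block and 0.315 and 0.324 with it. No member passed this comparison in either direction, where 0.00332% of tested probe sets passed as higher without the block and 0.00663% with it, and 0% as lower. By size, these differences ranked 13th and 20th from the top of the 30153 tested. The 2 probe sets varied alike over the 10 pairs, with a Pearson correlation of 0.736, although both share the same arrays. The first of them gave the larger ratio in 3 pairs and the second in 7.

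Among the other α subunits, Hif1a encodes HIF-1α, the widely expressed paralog, whose mRNA is not known for an IRE. On its probe set with the highest signal, 1427418_a_at, the log2 values in spleen were 11.32 and 11.25 with IRP2, against 11.31 and 11.36 without. In liver they were 9.87 and 10.28 with IRP2, against 10.16 and 10.47 without, and the arms overlapped in both tissues as in the other 3. Its mean ratio was -0.09 ± 0.15 (SE, 20 arrays), with a 95% interval of -0.42 to 0.23. The second tested probe set, 1416035_at, gave -0.12 ± 0.16, and the IRP2 arrays lay below both controls only in spleen. The interval of both excludes a mean ratio as large as that of Epas1 1449888_at. Hif3a, which encodes an α subunit with inhibitory splice forms, had the mean ratios -0.14 on 1425428_at and 0.11 on 1425429_s_at, with intervals of -0.40 to 0.12 and -0.20 to 0.43. These 2 Hif3a probe sets went opposite ways in liver, where the first had 6.24 and 6.24 with IRP2, against 6.65 and 6.67 without, and the second 7.13 and 6.73 with IRP2, against 6.61 and 6.53 without. Neither passed the test in liver.

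**Figure D2:**
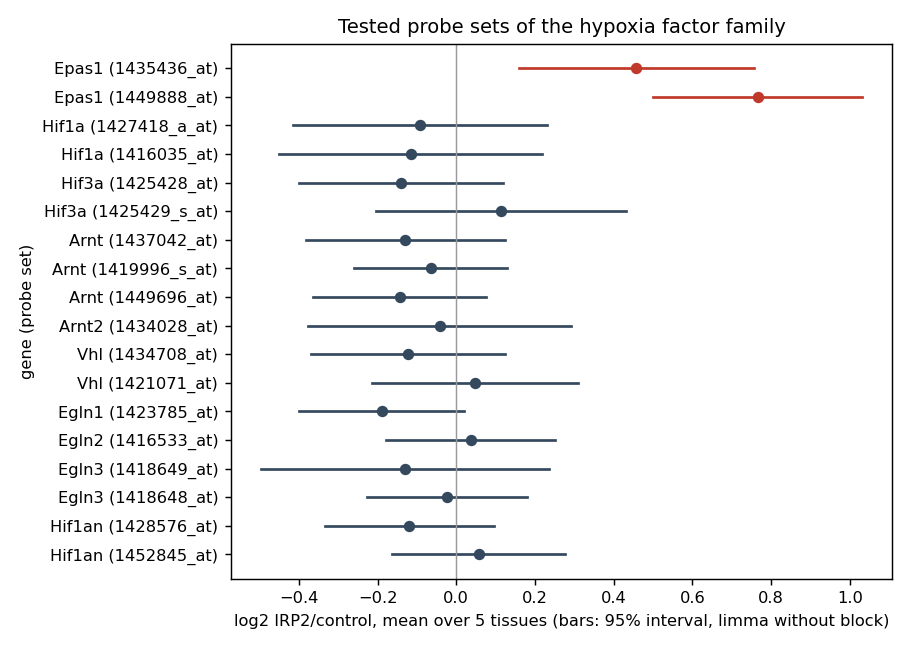
Mean log2 ratio of IRP2 over control reactions in 5 tissues (x axis) for the 18 tested probe sets of the 10 genes (y axis). Points are limma estimates without the block and bars are 95% intervals. The 2 Epas1 probe sets, in red, stand at 0.46 and 0.77, and the other 16, from -0.19 to 0.11, all have intervals that include 0.

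The dimerisation partners had mean ratios below 0 on all their tested probe sets, with intervals that included 0. Arnt, the general partner of HIF α subunits, had mean ratios of -0.13, -0.07 and -0.14 on its 3 tested probe sets, with intervals that together ran from -0.38 to 0.13. Its IRP2 arrays lay below both controls in spleen and bone marrow on 1419996_s_at, in liver on 1437042_at and in duodenum and bone marrow on 1449696_at, and above both in no tissue. Arnt2, the partner known mainly from brain, had log2 values in brain of 8.99 and 9.45 with IRP2, against 9.57 and 9.31 without, which overlapped. Its mean ratio was -0.04, with an interval of -0.37 to 0.29. Its IRP2 arrays lay above both controls in duodenum and below both in spleen. In bone marrow its pairs disagreed, with ratios of 0.57 and -0.67, at values of 4.92 and 3.38 with IRP2, against 4.35 and 4.05 without, below the array medians.

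The regulators, which unlike the α subunits act as enzymes or in the ubiquitin ligase, also stayed near the control. Egln1 encodes PHD2, the main oxygen-sensing hydroxylase, and its ratio was the lowest of the 18, at -0.19 ± 0.10 (SE, 20 arrays) with an interval of -0.40 to 0.02. It was below 0 in 9 of 10 pairs, and its adjusted p in limma was 1.0 without the block and 0.303 with it. The log2 values of Egln1 in bone marrow were 7.27 and 7.36 with IRP2, against 8.01 and 7.56 without, and in spleen 8.85 and 8.74 with IRP2, against 8.94 and 8.94 without. Both IRP2 arrays were the lower ones in each of these tissues. Egln2, which encodes PHD1, had the narrowest spread of pair ratios among the 18 probe sets (SD 0.11, 10 pairs), with 11.23 and 11.06 in liver with IRP2, against 11.21 and 11.04 without. Its mean ratio was 0.04 ± 0.10 (SE, 20 arrays), with an interval of -0.18 to 0.25.

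Egln3 encodes PHD3, itself a known HIF target. Its 2 probe sets gave mean ratios of -0.13 and -0.02, with intervals of -0.50 to 0.23 and -0.23 to 0.18. On 1418649_at the bone marrow values were 6.20 and 5.63 with IRP2, against 7.03 and 5.59 without, so that the negative ratio there came from the pair with control replicate 1. Vhl, the substrate receptor of the ligase, had mean ratios of -0.12 on 1434708_at and 0.05 on 1421071_at. Hif1an had -0.12 on 1428576_at and 0.06 on 1452845_at. In liver the first Hif1an probe set had 8.11 and 8.25 with IRP2, against 8.43 and 8.42 without, and the second 5.82 and 5.84 with IRP2, against 5.63 and 5.69 without. Both were apart between the arms in opposite directions.

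Over the 16 probe sets of the 9 genes other than Epas1, the mean ratios ran from -0.19 to 0.11 with a median of -0.10, beside a median of -0.02 over all tested probe sets. At an unadjusted p under 0.05, none of the 16 stood out on the mean in limma without the block, where 1.93% of all tested probe sets were higher and 0.939% lower. With the block only Egln1 did, as lower, where 5.57% of all were. Both IRP2 arrays lay above both controls for 2 of the 16 in duodenum, 2 in liver and 1 in spleen, and for 0 in bone marrow and brain, where 14.4%, 13.9%, 15.6%, 14.5% and 4.21% of all tested probe sets did, in that order of tissues. They lay below for 3, 4, 5, 3 and 1 of the 16 in the same order of tissues, where 8.98%, 20.7%, 20.2%, 12.1% and 6.44% did. None of the 9 genes had a probe set that was above its controls in more than 1 tissue. Below them in 2 tissues lay Hif3a 1425428_at, Arnt 1419996_s_at and 1449696_at, Egln1 1423785_at and Egln3 1418648_at. How many of all tested probe sets did either was not counted, so this does not set these genes apart.

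**Figure D3:**
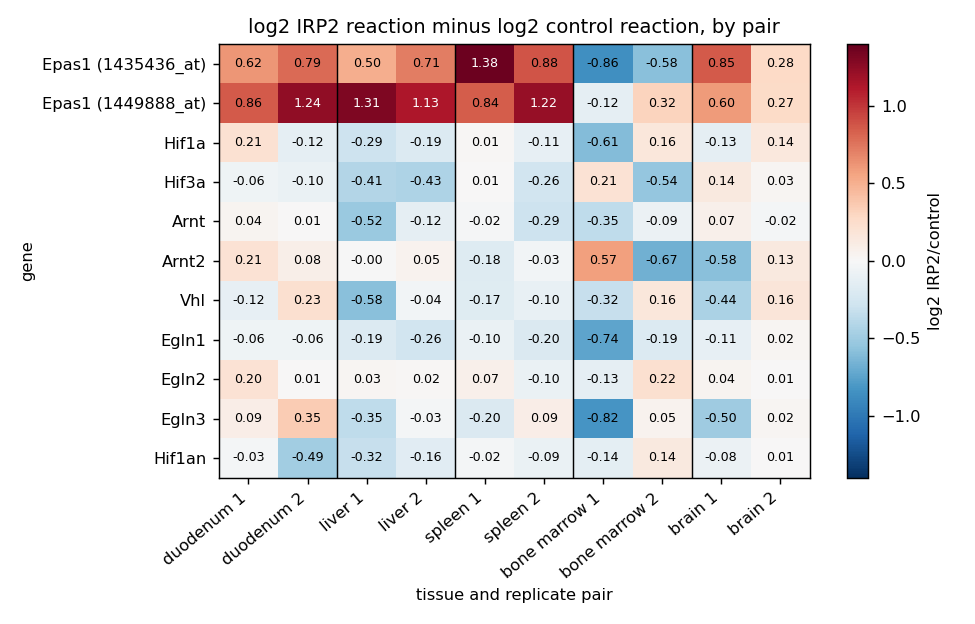
Log2 ratio of IRP2 over control reactions for each of the 10 replicate pairs (x axis, by tissue and replicate number) on both Epas1 probe sets and on the probe set with the highest signal of each other gene (y axis). Red cells are higher with IRP2 and blue cells lower, and the printed value is the log2 ratio. The Epas1 rows are red in all pairs of duodenum, liver, spleen and brain, and the largest values of the other rows, of either sign, lie mostly in bone marrow.

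Because every array measures all 10 genes, the Epas1 ratio was set against that of each other gene within the same pair, which removes any shift common to an array pair. This gave 18 comparisons, of 2 Epas1 probe sets with the brightest probe set of 9 genes. They were tested by an exact sign-flip permutation over 10 pairs, two-sided, with Benjamini-Hochberg adjustment over the 18. The smallest unadjusted p this test can give is 0.00195. The test takes the 10 pairs as independent, although 2 pairs come from each tissue. With the 2 pairs of a tissue averaged first, a sign flip over 5 tissues cannot give a two-sided p under 0.0625, so no comparison can pass at that level. It gave an exact p of 0.0625 for all 9 comparisons of 1449888_at, each positive in 5 of 5 tissues, and of 0.125 to 0.3125 (exact) for those of 1435436_at, each positive in 4 of 5. The calls that follow therefore speak for these pairs and not for tissues. The ratio of 1449888_at was larger than that of each of the 9 genes, by 0.73 (Egln2) to 0.96 (Egln1), with adjusted p between 0.00502 and 0.0156 in the exact test. Against Hif1a the difference was 0.86 ± 0.53 (SD, 10 pairs) and was positive in 10 of 10 pairs, with an exact adjusted p of 0.00502. It was positive in 10 of 10 pairs for 7 genes and in 9 of 10 for Hif3a and Arnt2. In bone marrow the differences ran from -0.70 to 0.99, both with Arnt2, and those with Egln2 were 0.0051 and 0.095. The ratio of 1449888_at itself was -0.12 and 0.32 in the bone marrow pairs.

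The ratio of 1435436_at was larger than that of Hif1a by 0.55 ± 0.66 (SD, 10 pairs), with an exact adjusted p of 0.0445, and the difference was positive in 8 of 10 pairs. It was larger for 7 genes in all, with differences from 0.55 to 0.65 and exact adjusted p between 0.0211 and 0.0461. The comparisons with Arnt2 (difference 0.50) and Egln2 (difference 0.42) did not pass, each with an exact adjusted p of 0.0957. The pairs that went against the direction were those of bone marrow, both of them for 8 genes and 1 of them for Arnt2. These calls for 1435436_at rested on few pairs. After quantile normalization of all arrays 1 of its 9 comparisons passed, that with Egln1 (exact adjusted p = 0.0316), and all 9 of 1449888_at did. When 1 pair of duodenum, liver, spleen or brain was left out, 1 to 3 of its 9 comparisons passed, and when 1 pair of bone marrow was left out, 8 or 9 did. All 9 comparisons of 1449888_at passed whichever pair was left out.

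**Figure D4:**
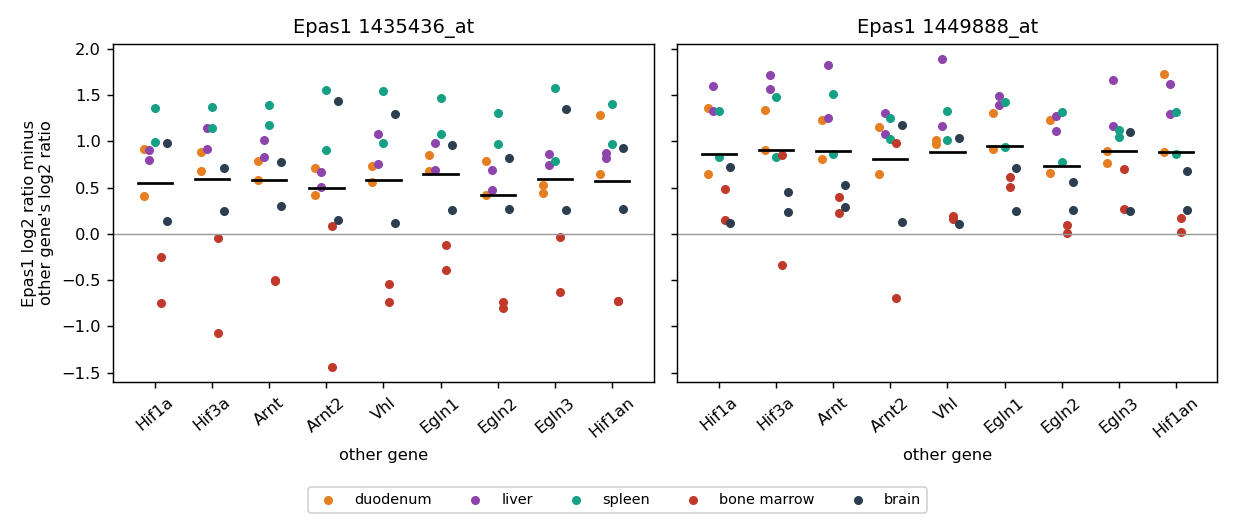
Log2 ratio of Epas1 minus the log2 ratio of each other gene (y axis) within each of the 10 replicate pairs, by other gene (x axis) and tissue (colour), for both Epas1 probe sets. Black bars are means over 10 pairs. On 1449888_at all means lie between 0.73 and 0.96, and on 1435436_at the points below 0 are those of bone marrow.

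The levels of the genes in the control reactions describe the RNA that the antibody and beads recovered without IRP2. They were set side by side across tissues as a description only, since array medians ranged from 5.39 to 5.71 and the tissues may have been normalized in separate runs. In brain the replicates differed too, with a control array median of 5.66 in replicate 1 and 5.41 in replicate 2. The markers of the labelled tissues were checked in these reactions. The markers of liver (5 of 5), bone marrow (5 of 5), brain (5 of 5), duodenum (4 of 4) and spleen lymphocytes (3 of 4) were highest in their own tissue, taking each gene's probe set with the highest control value. Pancreas acinar markers, 4 of 4, were also highest in duodenum, with a median log2 value of 11.7.

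Epas1 1435436_at was highest in liver, with 11.21 and 11.22, followed by spleen with 10.69 and 10.72 and duodenum with 10.36 and 10.88, whose arrays overlapped. Brain followed with 10.29 and 10.15, and bone marrow was lowest with 7.0 and 7.43. After the median of each array was subtracted the order was the same, and duodenum and brain overlapped instead. The mean of liver exceeded that of bone marrow by 4.0 on the log2 scale. On 1449888_at the order differed, with control means of 6.63 in duodenum, 6.33 in liver, 5.40 in brain, 5.13 in spleen and 5.10 in bone marrow. In the same reactions the 5 endothelial markers had a median log2 value of 8.00 in liver, 7.17 in spleen, 6.80 in brain, 5.92 in duodenum and 5.52 in bone marrow. In bulk RNA, fewer cells of a type and less RNA per cell cannot be told apart.

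Hif1a 1427418_a_at was highest in spleen, at 11.31 and 11.36, and lowest in bone marrow, at 9.75 and 8.53, where its arrays overlapped those of duodenum. On Hif1a 1416035_at brain was highest instead, with a control mean of 9.82, against 9.68 in spleen. Arnt2 stood highest in brain, at 9.57 and 9.31, and its other tissues lay between 4.05 and 5.25. Egln3 1418649_at was highest in duodenum, at 8.75 and 8.97, then in liver at 7.61 and 7.88, and lowest in spleen at 5.46 and 4.92. Egln1 was highest in brain, at 9.79 and 9.81, and lowest in bone marrow, at 8.01 and 7.56. Vhl 1434708_at was highest in brain too, at 8.07 and 8.08, and lowest in liver, where it overlapped duodenum. On Vhl 1421071_at the control means ran otherwise, from 6.70 in liver down to 5.96 in spleen. Hif1an 1428576_at was highest in spleen, at 9.48 and 9.42, and lowest in liver, at 8.43 and 8.42, where it overlapped bone marrow. On Hif1an 1452845_at the control means ran from 6.06 in bone marrow down to 5.56 in brain. Egln2, Arnt and Hif3a had spans of 1.18, 0.67 and 0.49 between the highest and lowest tissue mean, and most neighbours in their order overlapped.

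**Figure D5:**
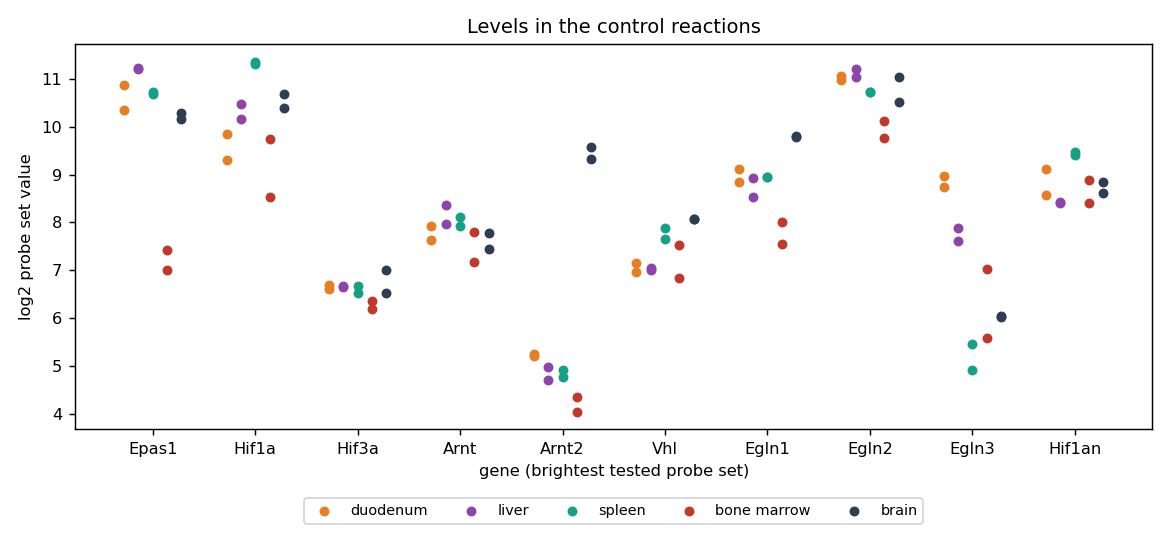
Log2 values in the 2 control reactions of each tissue (y axis) on the probe set with the highest signal of each gene (x axis), coloured by tissue. Values of different genes are not comparable with each other. Bone marrow is the lowest tissue for Epas1, Hif1a, Hif3a, Arnt, Arnt2, Egln1 and Egln2 by its mean, and Arnt2 is separated from its other tissues in brain.

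The wider pathway was described with 3 lists. None of the 9 tested genes of 11 other bHLH-PAS genes, the protein family to which HIF subunits belong, passed the test on the mean over tissues in either limma fit, and none had an unadjusted p under 0.05. Their ratios ran from -0.18 to 0.13 with a median of -0.05. Among them Ahr, the dioxin receptor, had -0.17 and Clock, a circadian factor, -0.09. None of 12 tested genes of the VHL ubiquitin ligase and the HIF coactivators passed in either fit or reached an unadjusted p under 0.05. Their ratios ran from -0.17 to 0.04, and Cul2, the cullin of the ligase, had -0.14 and Ep300, a coactivator, -0.08. Of all tested probe sets, 0.365% passed as higher and 0.00663% as lower without the block, and 1.07% and 0.146% with it. At an unadjusted p under 0.05 in limma, 1.93% were higher and 0.939% lower without it, and 6.16% and 5.57% with it. Counts of 0 in lists this short are near these shares and do not set these genes apart.

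Of 32 HIF target genes, 28 were on the array and 27 were tested, and none passed on the mean over tissues in either fit. At an unadjusted p under 0.05, 1 was lower without the block, as were 0.939% of all tested probe sets. With the block 1 was higher and 2 were lower, where 6.16% of all tested probe sets were higher and 5.57% lower. The median ratio of this list was -0.09, beside -0.02 over all tested probe sets. Vegfa, the vascular growth factor, had a mean ratio of -0.05 ± 0.11 (SE), Slc2a1, the glucose transporter GLUT1, had -0.12 ± 0.14, and Cybrd1, the duodenal ferric reductase and a known HIF-2α target, had -0.05 ± 0.44. None of the genes in the 3 lists passed in any single tissue either, and the highest count at an unadjusted p under 0.05 was that of 6 of 27 HIF target genes lower in bone marrow with the block, where 13.4% of all tested probe sets were.

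The genes whose pair ratios were most like those of Epas1 were named by their Pearson correlation over the 10 pairs, among tested probe sets with 1 symbol. For 1435436_at they were Znhit1 (0.969), Slc40a1, the iron exporter ferroportin (0.958), Aagab (0.948), Ugp2 (0.943) and Gyg, the glycogenin gene (0.940). Of these, Slc40a1 had a mean log2 ratio of 1.61 and Aagab one of 0.85, which passed in limma without the block with adjusted p of 1.18e-06 and 0.00215, and Znhit1 had a mean ratio of 0.04. Slc40a1 was higher with IRP2 by 0.61 in bone marrow and by 1.65 to 2.19 in the other tissues, while Aagab had -0.06 in bone marrow. For 1449888_at the genes were Lin28a (0.952), Txndc5 (0.923), Ruvbl2 (0.920), Klhl17 (0.919) and Irf4 (0.912), whose mean ratios lay between -0.08 and 0.27. No gene was among the 5 for both probe sets. Each of these genes had its lowest tissue ratio in bone marrow. They were picked as the highest correlations among all tested probe sets on only 10 pairs, so the correlations alone show no link with Epas1.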

How the data were processed

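The log2 probe set values were used as deposited. The authors made them with RMA in Bioconductor or with MAS5 in GCOS followed by quantile normalization, per the series' design text, without saying which arrays had which. The values lay between 1.77 and 15.0. Gene symbols came from the platform annotation. The members and the lists were chosen with earlier results of these data known, so no count over them is independent evidence.

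Of 45101 probe sets, 64 array controls were left out, and 30153 were tested, those with at least 2 of 20 values no lower than the array median. Limma 3.58.1 in R 4.3.3 fitted a mean for each of 10 groups of tissue and reaction on 20 arrays (10 residual degrees of freedom), with Benjamini-Hochberg adjustment over all tested probe sets and a threshold of 0.05. Same-numbered arrays deviated together from their group means (r = 0.676, 0.565 and 0.385 in duodenum, liver and spleen, 0.251 and 0.923 in bone marrow and brain). They were therefore also fitted as pairs, with the replicate number of each tissue as a block (5 residual degrees of freedom). That pairing comes from the values and the shared numbers, as the control was run in parallel per the labels. Both fits and the sign-flip test were tested on simulated data with known changes. Named genes were all 10 members, up to 3 textbook genes per list, and the 5 genes most like each Epas1 probe set. Python 3.11.15 was used for the permutation tests and figures. Arrays give no read depth, and their number limits the precision. Alternatives were the block, other filters and normalizations, a trended variance, single tissues and left-out arrays, pairs or tissues. No nucleotide or protein sequence is shown.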

Additional observations from a re-analysis of the deposited data

Results flagged for a closer look

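For 10 of the 18 tested probe sets, both replicate pairs of 1 tissue moved one way and both pairs of another the opposite way, and the largest such difference of each is given. How many of all tested probe sets did the same was not counted, so this number does not set these genes apart. These pairwise differences were not tested; the F test over all 5 tissues called none of the members. For Epas1 1435436_at, both pairs were higher with IRP2 in spleen and both lower in bone marrow, a difference in log2 ratio of 1.85. Its bone marrow pairs were also opposite to those of duodenum, liver and brain. The largest difference of each of the other 9 probe sets was 0.51 or less. For Hif1a 1416035_at, duodenum minus liver was 0.26. For Hif3a 1425428_at, brain minus liver was 0.51. For Arnt, liver minus spleen was 0.44 on 1419996_s_at and duodenum minus liver 0.34 on 1437042_at. For Arnt2 1434028_at, duodenum minus spleen was 0.25. For Vhl 1421071_at, bone marrow minus duodenum was 0.23. For Egln3, spleen minus brain was 0.43 on 1418648_at and duodenum minus liver 0.41 on 1418649_at. For Hif1an 1452845_at, liver minus spleen was 0.30.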

How the results depend on the processing

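The replicate block moved the calls among members to 1 in duodenum, 1 in liver and 2 in spleen, from 0 in each, and to 2 from 1 on the mean, where Epas1 1435436_at passed at 0.46 (adjusted p = 0.0112 in limma). With the block, 2 were called without bone marrow (1435436_at at 0.75, adjusted p = 0.000503) or brain (0.43, adjusted p = 0.0394), and 1 without duodenum, liver or spleen (0.40, 0.42 and 0.29), settings chosen after seeing the data. With only the 4 arrays of spleen, 2 were called there. Leaving out each of the 20 arrays in turn kept 1449888_at called on the mean (0.68 to 0.85, adjusted p 0.000766 to 0.0286) and 1435436_at uncalled (0.39 to 0.53) without the block. Of the 18 exact comparisons of Epas1 with another gene, 16 passed. After quantile normalization 10 did, and without the pairs of duodenum 9, liver 7, spleen 7 and brain 9, against 18 without those of bone marrow. With settings chosen after seeing the data, 10 to 18 passed with 1 pair left out, and 0 by sign flips of 5 tissue means. Leaving out 1 array turned the sign of small ratios, which spanned -0.22 to 0.029 for Hif1a, -0.28 to 0.013 for Egln3 (both above 0 without bone marrow control replicate 1), -0.20 to 0.11 for Arnt2 (above 0 without bone marrow IRP2 replicate 2, and 0.0035 without brain IRP2 replicate 1), -0.016 to 0.090 for Egln2 (below 0 without brain IRP2 replicate 1, and -0.014 without brain control replicate 2) and -0.049 to 0.24 for Epas1 1449888_at in bone marrow (below 0 without control replicate 2). Arnt2 had 0.0031 with the block and no brain. The cause was not tested. Signal near the array median limits 1449888_at in spleen, bone marrow and brain.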
